A study of Mus musculus with 16 samples.

Results

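Endothelial identity genes are the genes whose products build and mark the lining of blood and lymph vessels. The set described here holds 10 genes: Kdr, Tek, Tie1, Eng, Pecam1, Cdh5, Cldn5, Esam, Emcn and Egfl7. They were taken by symbol from the 50600 gene identifiers of a count table of mouse epidermal cells, and all 10 were found and passed the minimum of 10 counts in total that left 22155 genes for testing. The table holds 16 RNA-seq libraries of C57/B6J female mice, 4 in each of 4 groups. From 5 wk of age the mice were fed for 3 wk a purified AIN-93M diet, either as such (AhR-poor diet, labelled SYNTH) or enriched in indole-3-carbinol at 200 ppm (I3C diet), a plant compound that gives rise to ligands of the aryl hydrocarbon receptor (AhR). The footpad then received 50 μl of PBS, alone (vehicle) or containing the protease allergen papain (50 μg), and epidermal cells were isolated 6 hr later after dispase treatment and removal of dead cells. Mice on the same diet shared a cage, so diet and cage cannot be told apart. The comparisons ask how the level of vascular transcripts in an epidermal preparation differed with the diet and with the allergen. The 4 libraries of each group are listed by their codes, in the order T108, T109, T110 and T111 (I3C diet, vehicle), T106, T113, T114 and T115 (I3C diet, papain), T100, T101, T102 and T103 (AhR-poor diet, vehicle), and T104, T105, T107 and T112 (AhR-poor diet, papain).

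Blood vessels lie in the dermis and the subcutis, and the epidermis is normally avascular. Endothelial cells are held together by adherens junctions built on VE-cadherin and by tight junctions, and their growth and stability are set by the VEGF, angiopoietin and BMP/TGF-β receptor systems. Several members are not strictly endothelial: Pecam1 is also made by platelets and leukocytes, Esam by platelets, and Eng by macrophages and some stromal cells. In bulk RNA of this kind, a larger number of cells of a type and more RNA per cell cannot be told apart.

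The promoters of 4 members, some with and some without a match, are shown as examples, since factors of the ETS family, which bind a GGAA core, are known regulators of endothelial genes. The sequences are the 250 bases before the RefSeq start on GRCm38.p6, read 5′ to 3′ on the strand of the gene, with matches to the hexamer AGGAAG on either strand in capitals. Eng (chr2:32646345-32646594) and Emcn (chr3:137340828-137341077) lie on the forward strand and hold 2 matches each, while Tek (chr4:94739039-94739288, forward strand) and Kdr (chr5:75978456-75978705, reverse strand) hold none.
Eng: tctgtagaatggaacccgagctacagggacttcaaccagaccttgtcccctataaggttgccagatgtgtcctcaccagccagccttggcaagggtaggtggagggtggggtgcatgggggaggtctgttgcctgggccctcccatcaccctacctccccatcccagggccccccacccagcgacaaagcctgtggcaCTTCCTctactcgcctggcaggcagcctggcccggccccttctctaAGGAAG
Emcn: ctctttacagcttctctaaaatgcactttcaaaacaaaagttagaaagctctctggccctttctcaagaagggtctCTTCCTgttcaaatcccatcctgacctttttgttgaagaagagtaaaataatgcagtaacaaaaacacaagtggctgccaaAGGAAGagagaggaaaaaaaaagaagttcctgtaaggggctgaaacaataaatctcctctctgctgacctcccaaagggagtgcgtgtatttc
Tek: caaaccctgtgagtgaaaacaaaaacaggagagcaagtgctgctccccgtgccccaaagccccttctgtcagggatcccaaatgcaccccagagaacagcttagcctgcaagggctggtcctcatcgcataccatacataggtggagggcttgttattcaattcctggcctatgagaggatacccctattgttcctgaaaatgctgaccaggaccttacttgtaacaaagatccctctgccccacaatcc
Kdr: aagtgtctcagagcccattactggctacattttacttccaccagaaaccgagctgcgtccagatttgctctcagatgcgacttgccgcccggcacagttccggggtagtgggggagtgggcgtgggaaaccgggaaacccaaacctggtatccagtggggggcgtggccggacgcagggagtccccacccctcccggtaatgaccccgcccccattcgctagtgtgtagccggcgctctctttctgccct
RefSeq windows were found for 7 of the 10 members (9 windows of 300 bases, since Egfl7 has several starts). AGGAAG or CCGGAAG, on either strand, was found in 5 of these 9 windows, against 41.2% of all 32851 promoter windows. The GATA hexamer AGATAA was found in 1 of the 9, that of Tek, after its start, against 11.2% of all windows. A match is a description of the letters and not a binding site.

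Sequencing depth ranged from 22500821 to 51844375 counts per library. The detection floor was set at 3 counts, which in CPM (counts scaled to the library size) was 0.0579 to 0.133 depending on depth, and this limit takes in only counting error. The 8 keratinocyte markers summed to 5.44e+04 ± 2.14e+03 CPM (SD, n = 4) with vehicle on the I3C diet and 5.55e+04 ± 5.26e+03 on the AhR-poor diet, and none of the 8 was called between the diets in either treatment. Keratins and other keratinocyte markers were thus the most abundant of the 14 marker lists. On the I3C diet the members rested on 10 (Emcn) to 46 (Eng) counts summed over the 4 vehicle libraries, with more for Pecam1, and on 7 (Emcn) to 56 (Pecam1) over the 4 papain libraries. The AhR-poor libraries gave 71 (Esam) to 945 (Pecam1) summed counts with vehicle and 274 (Esam) to 1968 (Pecam1) with papain.

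Endothelial transcripts were much more abundant in the epidermal cells of mice on the AhR-poor diet than on the I3C diet. The CPM of the 10 members summed to 1.12, 3.42, 2.86 and 1.80 in the vehicle libraries of the I3C diet and to 2.83, 2.05, 1.06 and 1.07 in its papain libraries. On the AhR-poor diet the sums were 48.8, 23.4, 19.7 and 16.6 with vehicle and 70.3, 81.7, 34.6 and 45.8 with papain. The lowest sum on the AhR-poor diet exceeded the highest on the I3C diet, and the ratio of the group means was 11.8 with vehicle and 33.2 with papain. Between papain and vehicle, the ratio of the means was 2.14 on the AhR-poor diet and 0.762 on the I3C diet, and on each diet the libraries of the 2 treatments overlapped.

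**Figure D1:**
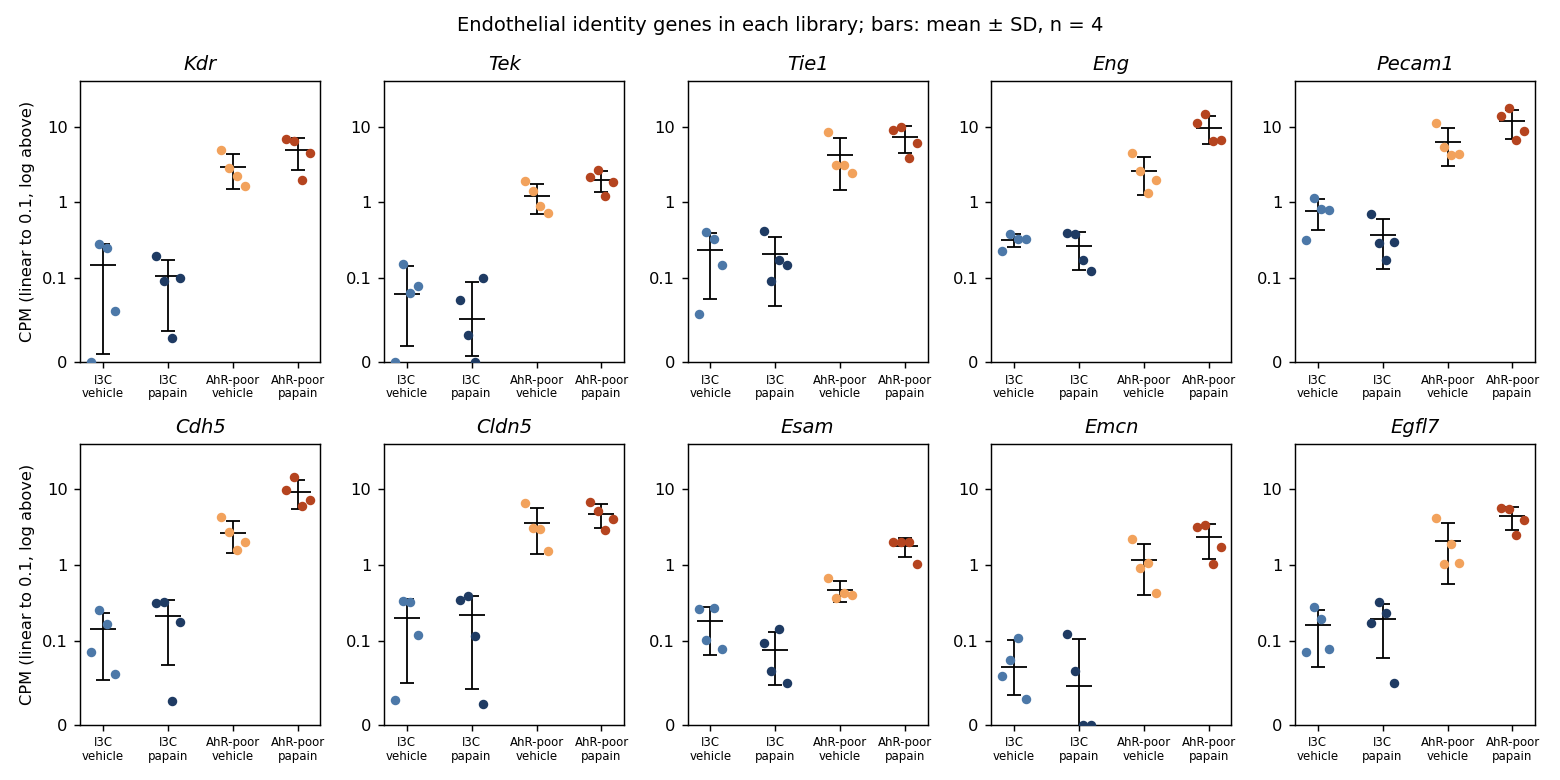
CPM of each of the 10 endothelial identity genes (linear up to 0.1 and logarithmic above) in each of the 16 libraries. Points are libraries, the horizontal mark and bar are the mean ± SD of 4 libraries, and a bar that would reach below 0 ends at the axis. In every panel the AhR-poor libraries of a treatment lie above the I3C libraries of the same treatment.

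The receptors were examined first, with gene positions given on GRCm38 as annotated in GENCODE. Kdr (chr5:75932827-75978458, reverse strand) encodes VEGF receptor 2, the main signalling receptor for VEGF-A. On the I3C diet, Kdr was at 0, 0.280, 0.245 and 0.0600 CPM with vehicle and 0.195, 0.0962, 0.0285 and 0.0995 CPM with papain. On the AhR-poor diet it was at 4.93, 2.86, 2.25 and 1.66 CPM with vehicle and 6.75, 6.37, 1.99 and 4.43 CPM with papain. The diets did not overlap in either treatment, whereas the AhR-poor papain libraries T107 and T112 lay within the range of the AhR-poor vehicle libraries. For Kdr, the log2 fold change between the AhR-poor and the I3C diet was 4.24 ± 0.60 (SE, adjusted p = 0.000641, edgeR) with vehicle and 5.47 ± 0.62 (adjusted p = 1.49e-05, edgeR) with papain.

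Tek and Tie1 encode the angiopoietin receptor Tie2 and its partner receptor, which keep vessels quiescent. Tek (chr4:94739289-94874976, forward strand) was at 0, 0.153, 0.0816 and 0.0900 CPM with vehicle and 0.0731, 0.0321, 0 and 0.0995 CPM with papain on the I3C diet. The AhR-poor libraries held 1.88, 1.40, 0.890 and 0.724 CPM of Tek with vehicle and 2.14, 2.69, 1.21 and 1.85 CPM with papain. The lowest AhR-poor library held 0.724 CPM and the highest I3C library 0.153 CPM. Its log2 fold change between the diets was 3.83 ± 0.53 with vehicle and 5.13 ± 0.55 with papain (adjusted p = 0.000314 and 3.11e-06, edgeR).

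For Tie1 (chr4:118471191-118490061, reverse strand), the values were 0.0574, 0.408, 0.326 and 0.150 CPM with vehicle and 0.414, 0.0962, 0.171 and 0.149 CPM with papain on the I3C diet. Tie1 reached 8.42, 3.07, 3.09 and 2.44 CPM with vehicle and 9.09, 9.996, 3.90 and 6.15 CPM with papain on the AhR-poor diet. In the AhR-poor vehicle group, library T100 stood far above the other 3. The diet difference of Tie1 was 4.12 ± 0.55 on the log2 scale with vehicle and 5.07 ± 0.56 with papain (adjusted p = 0.000485 and 1.3e-05, edgeR).

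Eng (chr2:32646595-32682669, forward strand) encodes endoglin, a co-receptor for BMP9 and other ligands of the TGF-β family. Its I3C values were 0.230, 0.382, 0.326 and 0.330 CPM with vehicle and 0.390, 0.385, 0.171 and 0.124 CPM with papain. Its AhR-poor values were 4.47, 2.59, 1.31 and 1.98 CPM with vehicle and 11.2, 14.5, 6.45 and 6.61 CPM with papain. Here the AhR-poor papain libraries lay above all AhR-poor vehicle libraries as well as above all I3C libraries. The log2 fold change of Eng between the diets was 3.01 ± 0.43 with vehicle (adjusted p = 0.000534, edgeR) and 5.18 ± 0.44 with papain (adjusted p = 6.26e-07, edgeR). Eng shares 61 exonic bases with Fpgs on the opposite strand, and the strand setting of the counting is not given in the sources used here. Fpgs had 35910 counts over all libraries, against 46 (vehicle) and 39 (papain) summed counts of Eng on the I3C diet. How many counts of Eng could belong to Fpgs is not known.

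Among the junction genes, Pecam1 (chr11:106654217-106750628, reverse strand), which encodes the adhesion molecule CD31, rested on the most counts of the 10 members in every group. With the I3C diet, Pecam1 was at 0.316, 1.15, 0.816 and 0.780 CPM (vehicle) and 0.706, 0.289, 0.171 and 0.298 CPM (papain). With the AhR-poor diet, it was at 11.1, 5.43, 4.203 and 4.32 CPM (vehicle) and 13.9, 17.5, 6.71 and 8.87 CPM (papain). The lowest AhR-poor vehicle library exceeded the highest I3C vehicle library 3.66-fold. Its diet difference was 3.02 ± 0.46 on the log2 scale with vehicle and 4.97 ± 0.50 with papain (adjusted p = 0.00124 and 7.37e-06, edgeR).

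Cdh5 (chr8:104101625-104144511, forward strand) encodes VE-cadherin, the cadherin of endothelial adherens junctions. Levels of Cdh5 on the I3C diet were 0.0861, 0.255, 0.163 and 0.0600 CPM with vehicle and 0.317, 0.321, 0.0285 and 0.174 CPM with papain. Levels on the AhR-poor diet were 4.30, 2.73, 1.56 and 2.01 CPM with vehicle and 9.68, 14.5, 5.97 and 7.18 CPM with papain. As for Eng, the AhR-poor papain libraries did not overlap any other group. Between the diets, Cdh5 differed on the log2 scale by 4.16 ± 0.51 with vehicle and 5.46 ± 0.48 with papain (adjusted p = 0.000192 and 1.04e-06, edgeR).

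Cldn5 (chr16:18776847-18778262, forward strand), the claudin of endothelial tight junctions, was at 0.0287, 0.331, 0.326 and 0.120 CPM with vehicle and 0.341, 0.385, 0.114 and 0.0249 CPM with papain on the I3C diet. It was at 6.62, 3.04, 2.99 and 1.53 CPM with vehicle and 6.70, 5.14, 2.86 and 4.05 CPM with papain on the AhR-poor diet. The highest vehicle library (T100) and the highest papain library (T104) of the AhR-poor diet were close to each other. Cldn5 differed between the diets by 4.08 ± 0.61 on the log2 scale with vehicle and 4.45 ± 0.61 with papain (adjusted p = 0.00111 and 9.28e-05, edgeR).

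Esam (chr9:37528078-37538319, forward strand), which encodes an immunoglobulin-family adhesion molecule of endothelial tight junctions, was the member that was not called between the diets with vehicle. Esam was at 0.258, 0.102, 0.272 and 0.0900 CPM with vehicle and 0.0974, 0.0641, 0.143 and 0.0497 CPM with papain on the I3C diet, and its highest I3C vehicle values were in T108 and T110. On the AhR-poor diet, Esam was at 0.681, 0.371, 0.420 and 0.402 CPM with vehicle and 2.02, 2.03, 2.03 and 1.03 CPM with papain. The vehicle groups of the 2 diets did not overlap, but by a narrow margin, the lowest AhR-poor library being 1.36-fold the highest I3C library. The log2 fold change of Esam with vehicle was 1.36 ± 0.40 and did not pass the threshold (adjusted p = 0.0785, edgeR), whereas with papain it was 4.28 ± 0.41 (adjusted p = 9.84e-07, edgeR).

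Emcn (chr3:137341067-137432185, forward strand) encodes endomucin, a sialomucin of the glycocalyx of capillaries and veins. Emcn had 0.0574, 0.0765, 0.109 and 0.0300 CPM with vehicle and 0.122, 0.0641, 0 and 0 CPM with papain on the I3C diet, from no more than 5 counts in any of these libraries. It had 2.21, 0.900, 1.06 and 0.429 CPM with vehicle and 3.20, 3.41, 1.04 and 1.74 CPM with papain on the AhR-poor diet. Its lowest AhR-poor library, T103, was above every I3C library. Emcn differed by 3.99 ± 0.67 on the log2 scale with vehicle and 5.56 ± 0.69 with papain (adjusted p = 0.00199 and 2.14e-05, edgeR).

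Egfl7 (chr2:26580014-26593120, forward strand) encodes a matrix protein that endothelial cells secrete. Its values on the I3C diet were 0.0861, 0.280, 0.190 and 0.0900 CPM with vehicle and 0.171, 0.321, 0.228 and 0.0497 CPM with papain. Its values on the AhR-poor diet were 4.195, 1.03, 1.90 and 1.07 CPM with vehicle and 5.66, 5.42, 2.47 and 3.92 CPM with papain. The AhR-poor vehicle libraries were widely spread, with T101 and T103 lowest and T100 far above the others. For Egfl7 the diets differed on the log2 scale by 3.61 ± 0.55 with vehicle and 4.54 ± 0.54 with papain (adjusted p = 0.00100 and 1.64e-05, edgeR). Egfl7 shares 264 exonic bases with Gm20532 and 73 with Mir126a on the same strand, which had 0 counts each, and 64 with Agpat2 on the opposite strand. Agpat2 had 10069 counts over all libraries, against 24 (vehicle) and 27 (papain) summed counts of Egfl7 on the I3C diet. How many counts of Egfl7 could belong to Agpat2 is not known.

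With vehicle, 9 of the 10 members were called higher on the AhR-poor diet, with a log2 fold change above 1 and an adjusted p under 0.01, and Esam was not. Of all 22155 genes tested, 1.59% were called higher in this comparison. The groups did not overlap for any of the 10 members, and in 6.45% of all genes the AhR-poor vehicle libraries lay entirely above those of the I3C diet. The members' log2 fold changes ran from 1.36 (Esam) to 4.24 (Kdr) with a median of 3.91, while the median of all genes was -0.01. For each member the two-sided exact permutation test on log2(CPM + 0.1) gave p = 0.0286 (4 against 4 libraries), the smallest value that this design allows. Leaving out library T108, T109 or T111 ended the call of Emcn (adjusted p = 0.0123, 0.0107 and 0.0113, edgeR) and left 8 of 10 members called. Without T100, the log2 fold change of Egfl7 was 2.99.

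With papain, all 10 members were called higher on the AhR-poor diet, against 7.15% of all genes. None of the 10 overlapped between the diets, as against 12.5% of all genes with the AhR-poor libraries above. Their log2 fold changes lay between 4.28 (Esam) and 5.56 (Emcn), with a median of 5.10 (0.01 over all genes). The lowest AhR-poor papain library exceeded the highest I3C papain library by a factor from 7.24 (Esam) to 18.6 (Cdh5). Without library T106, which held 5 of the 7 counts of Emcn on the I3C diet with papain, the log2 fold change of Emcn was 6.75 and that of Tie1 5.68. The exact permutation p was again 0.0286 for each member. The 2 diet comparisons share no library.

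**Figure D2:**
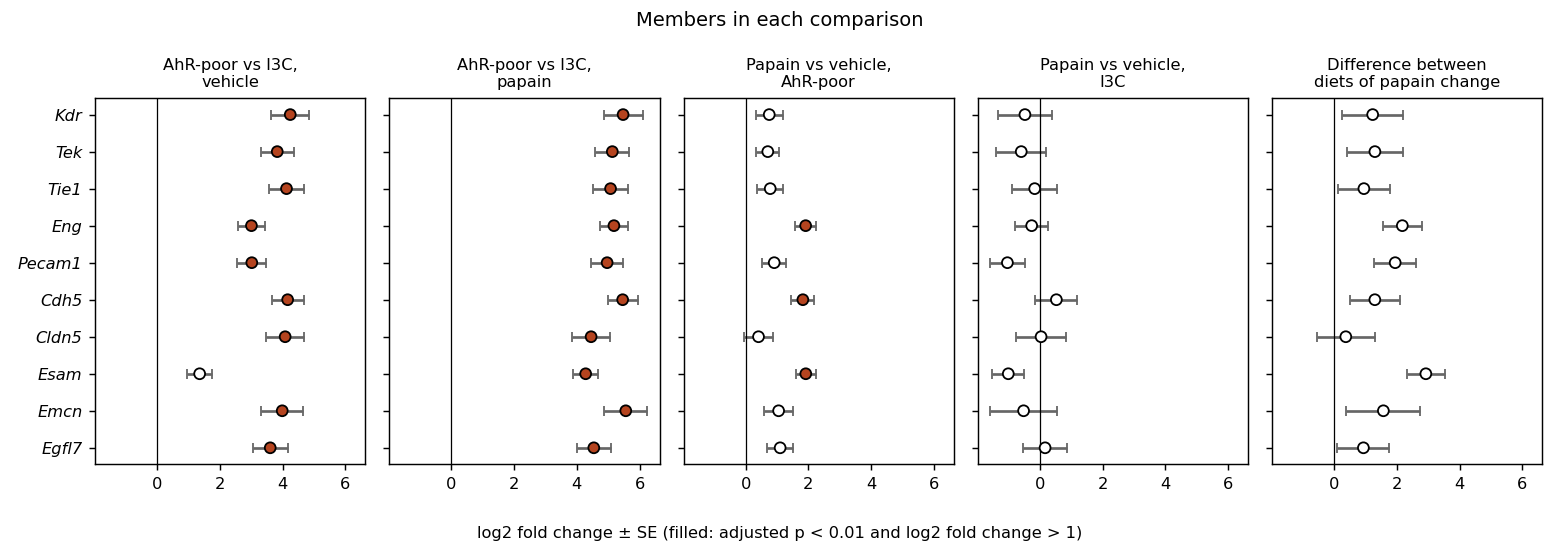
log2 fold change ± SE of each member in the 4 comparisons and in the interaction of diet and papain. Filled points had a log2 fold change above 1 and an adjusted p under 0.01: 9 members between the diets with vehicle, 10 with papain, and Eng, Cdh5 and Esam after papain on the AhR-poor diet.

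After papain on the AhR-poor diet, 3 of the 10 members rose, the co-receptor gene Eng and the junction genes Cdh5 and Esam. The log2 fold change against vehicle was 1.91 ± 0.34 for Eng (adjusted p = 0.000337, edgeR), 1.83 ± 0.37 for Cdh5 (adjusted p = 0.000984) and 1.92 ± 0.33 for Esam (adjusted p = 0.000144). In these 3 genes the papain libraries all lay above the vehicle libraries, and in the other 7 they overlapped. Over all genes, 6.04% were called higher and 17.0% had every papain library above every vehicle library. The other 7 members had log2 fold changes from 0.41 (Cldn5) to 1.10 (Egfl7) that did not pass the test, with adjusted p from 0.0516 to 0.550 (edgeR). The median of the 10 was 0.98. This comparison depended on the vehicle library T100, which had the highest value of its group for all 10 members. Without it, Tie1 and Egfl7 were called as well, and 5 of 10 members rose.

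On the I3C diet, none of the 10 members was called after papain, in either direction. Of all genes, 3.69% were called higher and 5.29% lower, so 0 of 10 is near the share of all genes. None of the members had an unadjusted p below 0.05 in edgeR, and DESeq2 called none of them. The log2 fold changes ran from -1.03 ± 0.55 (Pecam1, adjusted p = 0.168) to 0.53 ± 0.67 (Cdh5, adjusted p = 0.592), 3 of 10 were above 0, and the libraries overlapped for all members. The papain group held 7 to 56 counts of a member and the standard errors were 0.50 to 1.06 on the log2 scale, so small changes were not detectable at this depth.

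The interaction compares the papain response on the AhR-poor diet with that on the I3C diet. All 10 estimates were above 0, with a median of 1.30, against 53.1% of all genes above 0 and a median of 0.026. The members went up and down together within groups, so the 10 signs are not independent. No member passed the threshold, and 0.0181% of all genes did in either direction. An unadjusted p below 0.05 was found for 3 members. Esam had an interaction of 2.92 ± 0.60 (adjusted p = 0.0409, edgeR), Eng of 2.17 ± 0.63 (adjusted p = 0.156) and Pecam1 of 1.95 ± 0.67 (adjusted p = 0.247). That 3 members rose with papain on the AhR-poor diet and none on the I3C diet is thus not shown as a difference between the diets at the threshold used. DESeq2 called the interaction of Esam, as did edgeR without library T112.

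The order of the members' levels was read per exon length. In CPM per kilobase of exonic bases, Cldn5 had the highest mean in each of the 4 groups, at 2.50 ± 1.53 (SD, n = 4) with vehicle and 3.31 ± 1.15 with papain on the AhR-poor diet, and it was the highest member in each of the 8 AhR-poor libraries. On the I3C diet this was the order of the means only, as Cldn5 was at 0.142 ± 0.107 CPM per kilobase and Pecam1 at 0.123 ± 0.0549 with vehicle, and Cldn5 at 0.153 ± 0.123 and Eng at 0.0661 ± 0.0345 with papain, within their spread. Pecam1, Tie1, Eng, Cdh5 and Egfl7 followed with vehicle on the AhR-poor diet, at 1.01 ± 0.529, 0.865 ± 0.568, 0.640 ± 0.335, 0.631 ± 0.286 and 0.573 ± 0.415 CPM per kilobase. These SDs are between libraries, whereas the members were measured in the same libraries. Pecam1 was above Tie1, Eng, Cdh5 and Egfl7 in each library of this group, and the order of Tie1, Eng, Cdh5 and Egfl7 varied between libraries. Kdr, Tek, Emcn and Esam had the lowest means there, at 0.324 ± 0.158, 0.260 ± 0.111, 0.213 ± 0.139 and 0.163 ± 0.0499 CPM per kilobase. Kdr was above Tek, Emcn and Esam in each library of this group, and the order of Tek, Emcn and Esam varied. With papain, Eng (2.40 ± 0.965) and Cdh5 (2.22 ± 0.901) came next, ahead of Pecam1 (1.89 ± 0.784). Their ranges over the libraries overlapped, but within each library Eng and Cdh5 were both above Pecam1.

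The make-up of the endothelial signal on the AhR-poor diet is described here without a test. As a share of the members' summed CPM per kilobase, Eng held 9.21% on average with vehicle (libraries from 5.97 to 11.97%) and 16.4% with papain (14.2 to 18.3%). Cdh5 held 9.23% (6.83 to 11.7%) with vehicle and 15.3% (12.8 to 17.6%) with papain. Cldn5 held 34.0% (26.4 to 39.0%) and 23.0% (18.5 to 26.3%). On this scale the libraries of the treatments did not overlap for these 3 genes, with Eng and Cdh5 at a larger share with papain and Cldn5 at a smaller share, and they overlapped for the other 7. As a share of summed CPM, without the division by length, Eng and Cdh5 were again apart, but Cldn5 overlapped (9.22 to 15.2% with vehicle and 6.30 to 9.52% with papain) and Kdr was apart instead (10.03 to 12.2% and 5.75 to 9.67%). Shares sum to 100%, so they are not independent.

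**Figure D3:**
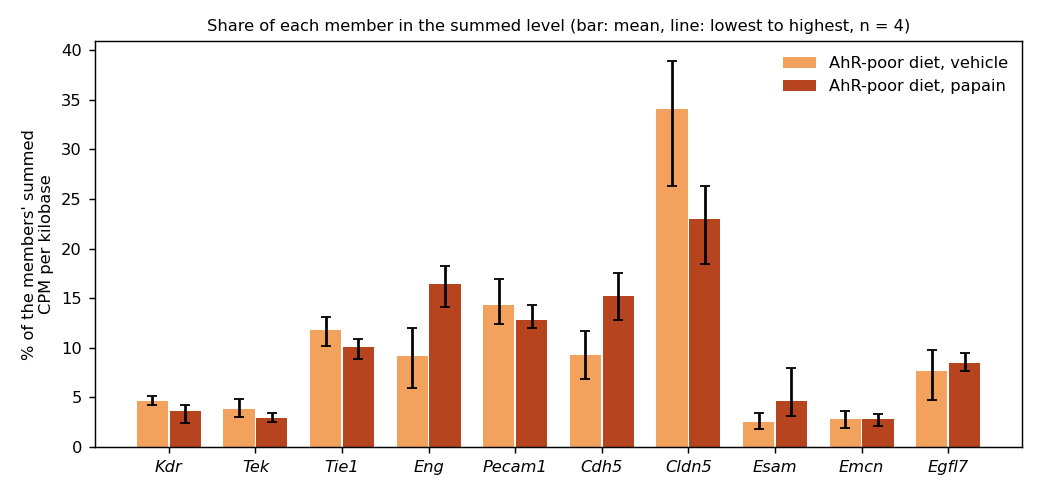
Share (%) of each member in the summed CPM per kilobase of the 10 members, on the AhR-poor diet with vehicle or papain. Bars are means of 4 libraries and lines run from the lowest to the highest library. The mean share of Eng went from 9.21% to 16.4% and that of Cdh5 from 9.23% to 15.3%, and that of Cldn5 from 34.0% to 23.0%.

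Within groups, the members went up and down together from library to library. After the mean of each group was subtracted from log2(CPM + 0.1), the Pearson correlation over the 45 pairs of members had a median of 0.72 over the 16 libraries. Against the mean of the other members, 9 members had r from 0.74 (Egfl7) to 0.90 (Kdr and Pecam1), and Esam had 0.17. Within the 8 AhR-poor libraries these r ran from 0.51 (Esam) to 0.99 (Tie1), and within the 8 I3C libraries, where counts were low, from -0.23 (Esam), 0.53 (Tek) and 0.54 (Egfl7) to 0.89 (Kdr). Library T100 was the highest of the AhR-poor vehicle group for 10 of 10 members, T104 or T105 of the AhR-poor papain group for 9 of 10, and T109 of the I3C vehicle group for 8 of 10. In the I3C papain group the highest library was T106 for 5 members, T113 for 3, and T114 and T115 for 1 each. These correlations share library, depth and normalization and describe the libraries only. Of the genes outside the lists, with a mean of at least 1 CPM, the 5 most like the members by the same measure were Apold1 (r = 0.90), C630043F03Rik (0.86), Gimap6 (0.86), Ntn1 (0.85) and Kank3 (0.85), over 16 libraries.

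Most of the further endothelial genes moved in the same direction between the diets. Of 20 other pan-endothelial genes, 9 were called higher on the AhR-poor diet with vehicle and 17 with papain, and none was called lower. Their median log2 fold change was 2.51 with vehicle and 4.13 with papain, and it was above 0 for 18 and 19 of the 20. Erg, an ETS-family factor of endothelial cells, was at 1.39, 0.582, 0.668 and 0.483 CPM with vehicle and 1.38, 2.09, 0.736 and 0.897 CPM with papain on the AhR-poor diet. On the I3C diet it was at 0, 0.0510, 0.0544 and 0 CPM with vehicle and at 0 counts in all 4 papain libraries. Mmrn2, which encodes an endothelial matrix protein, differed between the diets by 4.03 ± 0.45 on the log2 scale with vehicle (adjusted p = 5.72e-05, edgeR). With papain it had 1 count over the 4 I3C libraries, in T106, and 347 over the 4 AhR-poor libraries, a ratio of 334 with a 95% counting interval from 59.6 to 13231 (adjusted p = 1.25e-07, edgeR). The 3 genes not called with papain were Sox7, Flt1 and Ecscr. In the papain groups Sox7, a SOX-family factor, had 57.8 ± 3.32 CPM (I3C) and 53.6 ± 1.41 CPM (AhR-poor, SD, n = 4).

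Papain against vehicle raised 8 of these 20 genes on the AhR-poor diet and 2, Plvap and Ecscr, on the I3C diet. Plvap encodes the protein of endothelial fenestral diaphragms, and Ecscr a surface protein involved in endothelial migration. Plvap went from 0.257 ± 0.154 to 2.67 ± 0.790 CPM in I3C-fed mice and from 1.998 ± 1.01 to 9.62 ± 3.01 CPM in mice fed the AhR-poor diet. These were changes of 3.34 ± 0.44 and 2.27 ± 0.35 on the log2 scale (adjusted p = 1.13e-05 and 7.7e-05, edgeR). Ecscr rose by 3.69 ± 0.44 and 2.46 ± 0.39 on the log2 scale (adjusted p = 6.5e-06 and 0.000126, edgeR). In the I3C papain group the mean of Ecscr was 6.67 ± 2.20 CPM. Plvap and Ecscr were thus each above the mean summed level of the 10 members in that group, 1.75 ± 0.855 CPM (SD, n = 4). Which cells these transcripts came from was not tested. Sox7, Flt1, Ecscr and Plvap were singled out after their values were seen.

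Lymphatic genes followed the diet as the members did. All 6 lymphatic markers, Prox1, Lyve1, Flt4, Ccl21a, Mmrn1 and Reln, were called higher on the AhR-poor diet with vehicle and with papain, with a median log2 fold change of 3.93 and 4.93. After papain, none of the 6 was called on either diet, with a median of 0.21 on the AhR-poor diet and -0.79 on the I3C diet. Flt4, the receptor for VEGF-C and VEGF-D, was at 15.0, 7.92, 5.24 and 4.69 CPM with vehicle and 12.04, 12.9, 6.06 and 8.54 CPM with papain on the AhR-poor diet, and at 0.115, 0.714, 0.952 and 0.330 and 0.731, 0.0641, 0.0285 and 0.249 CPM on the I3C diet. Mmrn1, an extracellular matrix protein of lymphatic endothelium and platelets, was at 17.7, 9.87, 6.06 and 4.37 CPM with vehicle and 13.5, 12.5, 5.67 and 7.40 CPM with papain on the AhR-poor diet. Both genes were highest in T100 within their vehicle group, the library that was also highest for all 10 members.

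Among 12 tested genes listed as markers of arterial, venous and tip endothelium, none was called between the diets with vehicle. With papain, 5 were called higher on the AhR-poor diet. Some of the list were abundant on both diets. With vehicle, the means on the I3C and the AhR-poor diet were 634 and 538 CPM for Notch1 and 130 and 155 CPM for Efnb2. For Ephb4 they were 99.2 and 91.3 CPM. The 10 members together had means of 2.30 and 27.1 CPM there. Which cells the transcripts of this list came from was not tested, so its calls are not calls of endothelium as such. Ackr1, the chemokine-binding receptor of venules, was at 0.420 ± 0.222 CPM with vehicle and 3.44 ± 1.41 CPM with papain on the AhR-poor diet, and its papain response there was 3.04 ± 0.45 on the log2 scale (adjusted p = 4.96e-05, edgeR). Of the 12, papain on the AhR-poor diet raised 2, Ackr1 and Esm1, a tip-cell gene at 0.354 ± 0.372 CPM with papain, and lowered 1, the arterial connexin gene Gja4, which was lowered on the I3C diet too. Gja4 was at 1.84 ± 0.126 CPM with vehicle and 0.518 ± 0.0482 CPM with papain on the I3C diet, and at 2.01 ± 0.314 and 0.806 ± 0.117 CPM on the AhR-poor diet (SD, n = 4). These were changes of -1.83 ± 0.20 and -1.31 ± 0.19 on the log2 scale (adjusted p = 8.52e-07 and 3.16e-05, edgeR). With vehicle, Gja4 was thus at similar levels on the 2 diets, unlike the members. Esm1, Gja4, Notch1, Efnb2 and Ephb4 were named after their values were seen. Dll4, the Notch ligand of arterial and tip cells, differed between the diets by 2.88 ± 0.42 with papain (adjusted p = 7.99e-05, edgeR) and by 0.74 ± 0.39 with vehicle (adjusted p = 0.471). Of 4 tested adhesion genes of activated endothelium, Sele and Selp were called between the diets in both treatments. Vcam1 was called with papain only, with means of 0.548 CPM (I3C) and 3.28 CPM (AhR-poor) there. Icam1, the most abundant of the list, was called in neither treatment, and its diets overlapped in both. Its means were 257 CPM (I3C) and 220 CPM (AhR-poor) with vehicle, and 229 and 263 CPM with papain. Vcam1 and Icam1 were named after their values were seen. Sele, which encodes E-selectin, was at 3.79, 2.25, 2.79 and 3.33 CPM with vehicle and 8.20, 7.95, 2.99 and 4.22 CPM with papain on the AhR-poor diet, and at no more than 0.357 CPM in any I3C library. Its diet difference was 4.24 ± 0.50 on the log2 scale with vehicle (adjusted p = 0.00011, edgeR). With papain it rested on 3 counts on the I3C diet and 976 on the AhR-poor diet, a ratio of 313 with a 95% counting interval from 106.8 to 1521 (adjusted p = 4.54e-07, edgeR). Selp, which encodes P-selectin, differed by 4.001 ± 0.63 with vehicle and, on 4 counts in the I3C papain group, by 8.01 ± 0.84 with papain (adjusted p = 0.00179 and 1.04e-05, edgeR).

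Of the VEGF-family ligands, Vegfa, Vegfb, Vegfd and Pgf were not called between the diets. Vegfa, the main ligand of the Kdr product and a gene that keratinocytes express, was at 79.3, 51.2, 51.1 and 53.2 CPM with vehicle and 95.1, 155, 139.9 and 115.3 CPM with papain on the I3C diet. It was at 57.7, 43.2, 52.02 and 61.6 CPM with vehicle and 118, 132, 124 and 101.3 CPM with papain on the AhR-poor diet. Vegfa rose with papain on both diets, by 1.10 ± 0.17 and 1.15 ± 0.17 on the log2 scale (adjusted p = 7.08e-05 and 6.61e-05, edgeR), and the diets overlapped in both treatments. Pgf, which encodes placental growth factor, rose as well, by 1.97 ± 0.36 on the I3C diet and 2.18 ± 0.35 on the AhR-poor diet (adjusted p = 0.000369 and 0.000142, edgeR). The papain difference of Vegfb was -0.84 ± 0.11 and -0.54 ± 0.11 (adjusted p = 8.69e-06 and 0.000913, edgeR), below the minimum fold change. Vegfd was not called in any comparison, but its AhR-poor libraries lay below its I3C libraries in both treatments. They were at 18.1 to 19.5 against 20.9 to 23.8 CPM with vehicle and at 14.2 to 20.7 against 20.8 to 22.7 CPM with papain.

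Gdf2 and Bmp10, the high-affinity ligands of the endoglin complex, had 0 counts in all 16 libraries. Tgfb1 differed between the diets with papain by 0.72 ± 0.12 (adjusted p = 0.000165, edgeR), below the minimum fold change. Acvrl1, the type I receptor that works with endoglin, rose with papain on the AhR-poor diet by 1.08 ± 0.16 (adjusted p = 3.29e-05, edgeR). On the I3C diet it was at 7.04 ± 1.35 CPM with vehicle and 9.70 ± 1.06 CPM with papain (SD, n = 4) and was not called. Between the diets Acvrl1 was not called. With papain its AhR-poor libraries (13.6 to 23.0 CPM) lay above its I3C libraries (8.70 to 11.2 CPM), and with vehicle they overlapped. The VEGF co-receptor gene Nrp2 was called higher on the AhR-poor diet with vehicle (1.06 ± 0.17, adjusted p = 0.00174, edgeR) but not with papain (-0.11 ± 0.17, adjusted p = 0.727), and Nrp1 was called in neither. Of the 12 genes of this list that could be tested, 1 was called higher between the diets with vehicle and 3 with papain. The 3 were Vegfc and the Tie2 ligand genes Angpt1 and Angpt2, all below 1 CPM and named here after their values were seen. In the papain groups Angpt2, with 4 counts on the I3C diet, had 0.0247 ± 0.0352 CPM (I3C) and 0.927 ± 0.349 CPM (AhR-poor, SD, n = 4), differing by 4.97 ± 0.76 on the log2 scale (adjusted p = 0.000124, edgeR).

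The epithelial counterparts of the junction members were abundant and were not called between the diets. Cdh1, which encodes E-cadherin, had 705 ± 109.9 CPM (I3C) and 702 ± 66.2 CPM (AhR-poor) with vehicle (SD, n = 4), which is a log2 difference of -0.01 ± 0.10 (adjusted p = 0.997, edgeR). With papain the difference was -0.32 ± 0.10 (adjusted p = 0.0312, edgeR). Cldn1, the main claudin of epidermal tight junctions, differed by 0.05 ± 0.11 and 0.03 ± 0.11 (adjusted p = 0.924 and 0.880, edgeR). Cldn4, Cdh3 and F11r were likewise not called between the diets. Cdh3, which encodes P-cadherin, rose with papain on the I3C diet by 1.15 ± 0.12 (adjusted p = 6.2e-07, edgeR), and was the only gene of the 5 called in any of the 4 comparisons.

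Many markers of other cells of the dermis and blood moved with the members. The 10 fibroblast markers summed to 20.3 to 24.9 CPM with vehicle and 11.96 to 25.9 CPM with papain in the libraries of the I3C diet, and to 114.7 to 200.3 and 295 to 714 CPM on the AhR-poor diet. Of these 10, 9 were called higher on the AhR-poor diet in each treatment, and 9 rose with papain on the AhR-poor diet. The 10 platelet and erythroid markers summed to 15.5 to 27.7 and 18.4 to 35.5 CPM on the I3C diet and to 94.2 to 174 and 286 to 1.28e+03 CPM on the AhR-poor diet. Between the diets, 6 of the 9 tested were called higher with vehicle and 7 with papain. These were the 4 haemoglobin genes, among them near-identical copies that can share reads, Alas2 and the platelet gene Pf4, joined by the platelet gene Ppbp with papain. The 2 most abundant platelet genes were not called, with Itga2b at 7.02 ± 1.58 CPM (I3C) and 5.89 ± 0.714 CPM (AhR-poor) with vehicle and 13.8 ± 3.05 and 11.3 ± 1.16 CPM with papain (SD, n = 4). Gp1bb was at 12.2 ± 3.20 and 12.1 ± 1.45 CPM with vehicle and, with papain, in libraries from 3.88 to 6.14 and from 4.09 to 8.01 CPM. Ppbp had 0 counts on the I3C diet and 1 count with vehicle on the AhR-poor diet, and Gp9 had 3 counts in all 16 libraries. The genes of this list were singled out after their values were seen.

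The 8 leukocyte markers summed to 28.1 to 39.5 and 20.04 to 54.1 CPM on the I3C diet and to 64.3 to 73.6 and 101.9 to 417 CPM on the AhR-poor diet, with vehicle and papain. Between the diets, 1 of the 8 was called with vehicle and 6 with papain, and the neutrophil gene Ly6g had counts in the AhR-poor papain group only. Of the 10 pericyte and smooth muscle markers, 1 was called higher with vehicle (Pdgfrb) and 6 with papain. On the I3C diet these 10 summed to 218 to 300 CPM with vehicle and 309 to 373 CPM with papain. On the AhR-poor diet they summed to 216 to 299.5 and 209 to 251 CPM, so with papain their sum was lower there. Notch3, named after its values were seen, was at 233 to 284 CPM (I3C) and 120 to 176 CPM (AhR-poor) with papain. Of the 5 Langerhans cell markers none was called, although their summed level was 313 to 559 and 340.1 to 673 CPM on the I3C diet against 736 to 824 and 798 to 966 CPM on the AhR-poor diet. Of 3 tested adipocyte markers, 2 were called higher with papain, at summed levels of no more than 4.87 CPM, and 1 of 5 Schwann cell markers was. The part of these cells, of vessels carried over from the dermis, and of the amount of dermis left in each preparation in the levels of the members was not tested.

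**Figure D4:**
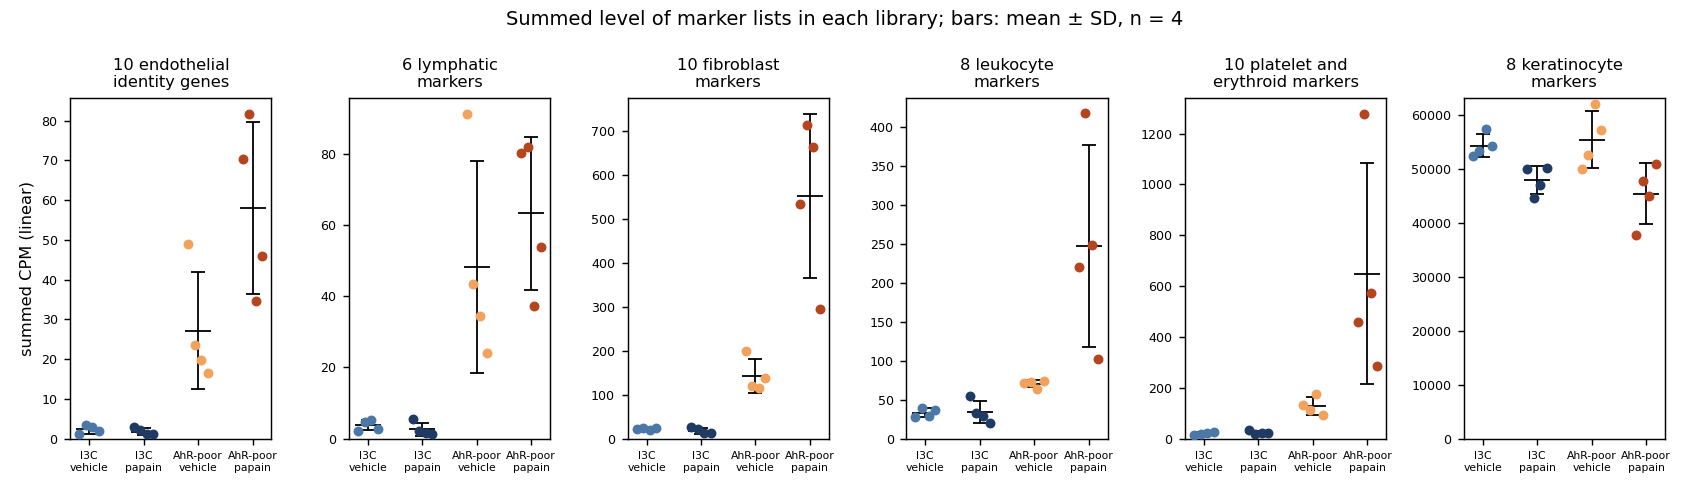
Summed CPM (linear scale) of the 10 endothelial identity genes and of 5 marker lists in each library, with the mean ± SD of 4 libraries. The endothelial, lymphatic, fibroblast, leukocyte and platelet and erythroid sums are higher in the AhR-poor libraries than in the I3C libraries of the same treatment, and the keratinocyte sums lie between 37835 and 61996 CPM in all 16.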

How the data were processed

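Epidermal cells of the mouse footpad were profiled by RNA-seq in 16 libraries, 4 for each combination of diet and injection. The libraries were made with the TruSeq Stranded mRNA kit. Per the labels and the methods of the study, reads were aligned with STAR to mm10 after FastQC. The authors deposited raw counts per gene and library, without normalization, and the counting tool, the annotation and the strand setting are not given in the sources used here. GENCODE M21 (GRCm38) gave a symbol for 50376 of 50600 identifiers, together with positions and exonic lengths. Promoter windows come from RefSeq on GRCm38.p6.

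Each library took its group from its label. Replicates are named as biological replicates by the study, and p-values measure the spread between these libraries. A minimum of 10 counts over all libraries left 22155 genes. CPM are counts scaled to library totals with TMM factors. A mean for each group was fitted to all 16 libraries in edgeR 4.0.16 (R 4.3.3) with the robust quasi-likelihood test, p-values were adjusted over all genes by the Benjamini-Hochberg method, and a gene was called at an adjusted p below 0.01 and an absolute log2 fold change above 1. Two-sided exact permutation tests used log2(CPM + 0.1). The sequencing unit is not in the labels, so no term for it was fitted. Alternatives were RLE factors, library totals only, filterByExpr, at least 1 count, a fit of only the 8 libraries compared, DESeq2 1.42.0, calls without a minimum fold change or at an adjusted p under 0.05, and each library left out.

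The members and the 14 gene lists were chosen with earlier results of these data known. Named genes are the 10 members, the genes of the ligand and epithelial lists with at least 1 CPM in a group, the 2 largest changes between the diets with papain in each other list, of which those that bear on the members are printed, and the 5 genes most like the members. Others are said to be chosen after their values were seen.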

Additional observations from a re-analysis of the deposited data

Results flagged for a closer look

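In 3 of 44 group values examined (10 members and their sum in 4 groups), the most distant library of the 4 stood apart from the others by more than Dixon's 95% critical value of 0.829, where chance gives about 1 in 20. Tie1 was at 8.42 CPM in library T100 of the AhR-poor vehicle group, against 2.44 to 3.09 CPM in the other 3. Esam was at 0.681 CPM in the same library, against 0.371 to 0.420 CPM. Esam was at 1.03 CPM in library T112 of the AhR-poor papain group, against 2.02 to 2.03 CPM in the other 3.

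The diet difference of 3 named genes differed between papain and vehicle at an adjusted p below 0.05 (edgeR interaction), without passing 0.01. The interaction was 2.92 on the log2 scale for Esam (adjusted p = 0.0409), 0.79 for Tgfb1 (adjusted p = 0.0409) and -1.16 for Nrp2 (adjusted p = 0.0493).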

How the results depend on the processing

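No paired analysis was possible because no replicate code occurs in more than 1 group. Under RLE factors, library totals only, filterByExpr, at least 1 count, only the 8 libraries compared (not used for the interaction) and no minimum fold change, the number of members called was the same as in the main analysis in each comparison: 9 and 10 between the diets with vehicle and papain, 3 after papain on the AhR-poor diet, 0 on the I3C diet, and 0 for the interaction. DESeq2 and an adjusted p below 0.05 gave the same counts except for the interaction, where each called 1 member, Esam. With each library left out in turn, 8 to 9 members were called between the diets with vehicle, 10 with papain, 3 to 5 after papain on the AhR-poor diet, 0 after papain on the I3C diet and 0 to 1 for the interaction. The cause of these changes was not tested.

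The log2 fold change after papain on the I3C diet changed sign for 4 members. With each library left out, it ran from -0.98 to 0.042 for Kdr (above 0 without T109), from -0.77 to 0.24 for Tie1 (above 0 without T109, T110 or T113), from -0.34 to 0.43 for Cldn5 (below 0 without T108, T111, T106 or T113) and from -0.17 to 0.57 for Egfl7 (below 0 without T108, T111 or T113). Cldn5 was at -0.0027 there under library totals only. The interaction of Cldn5 ran from -0.012 (without T115) to 0.87. None of these values was called. The summed level of the members moved by less than 1 SD in every group under library totals only. Leaving out 1 of 4 libraries cannot move a group mean by 1 SD, so that setting is given by its values. Without T100 the AhR-poor vehicle sum was 19.9 CPM instead of 27.1, and without T105 the AhR-poor papain sum was 50.3 CPM instead of 58.1. The group shares of the members' level, 2.57%, 1.96%, 30.4% and 65.1% for I3C vehicle, I3C papain, AhR-poor vehicle and AhR-poor papain, were 2.76%, 2.04%, 30.5% and 64.7% as the mean of each member's own share. Low counts on the I3C diet limited the precision there.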
